A study of Mus musculus with 11 samples.

Results

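The transcription factor genes that steer activated T-cells towards effector, memory or helper fates were examined, 10 in all, in T-cells of mice with leukemia driven by human TCL1A, the oncogene of T-cell prolymphocytic leukemia. The genes were Tbx21, Eomes, Runx3, Zeb2, Id2, Id3, Bcl6, Bach2, Gata3 and Rora. Each was taken by its symbol in the platform annotation, using the brightest row on average where a symbol had several, which gave 10 of the 19937 genes measured. Splenic T-cells were profiled on 11 whole-transcript microarrays in 3 groups. In the chronic phase (3 arrays), Lckpr-TCL1A+/- mice had 30 to 70% tumor cells in blood and spleen and were 12 months old on average. In the exponential phase (5 arrays), mice of the same genotype had over 80% tumor cells in blood and over 90% in spleen, were 15 months old on average and had a blood lymphocyte doubling time of 12 days. The wild-type group (3 arrays) held age-matched C57BL/6 mice without the transgene, with RNA of 3 mice pooled on each array. The transgene is driven by the proximal Lck promoter, which is active in the T-lineage. By the labels, the leukemic cells were enriched for CD8+ T-cells, but the wild-type cells for CD3+ pan-T-cells, and the effects of genotype and of selection cannot be told apart. Nothing in the sources used here says that each leukemia array was a separate mouse, and the p-values hold for the variation from array to array, which may be technical.

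These factors act in opposed pairs and networks. T-bet (Tbx21), EOMES, RUNX3, ZEB2 and ID2 favour cytotoxic effector cells, while ID3, BCL6 and BACH2 favour long-lived memory and follicular helper cells. GATA3 directs type 2 helper cells and is also needed in CD8+ T-cells, and RORA acts in interleukin-17-producing helper cells, innate lymphoid cells, tissue regulatory T-cells and the circadian clock. RUNX3 silences Cd4 in the CD8 lineage, and ID proteins hold E-proteins away from DNA.

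Values are log2 intensities after RMA, a method that corrects background and summarises the probes of a gene. The median of all rows was 2.30 on every array, and no detection call was used. Of the members, Id2 and Eomes had the highest mean values and Id3 the lowest, at the 94.5th, 92.7th and 49.5th percentile of all genes, but probes differ in brightness and these ranks do not order the transcripts. The T-cell label held on all arrays, with a mean over 6 measured T-cell markers of 7.45 to 7.76 in wild type, 6.60 to 7.32 in the chronic and 7.08 to 7.57 in the exponential phase. Exponential replicate 4 went against its CD8 label. Its Cd8a value was 2.96, against 6.16 to 8.31 on the other 10 arrays, and its Cd4 value was 5.18, the highest of all. Where leaving out this array made or ended a call or turned the direction of a difference reported here, this is stated. Not every such statement gives the values both with and without the array. Regulatory T-cell markers (Foxp3, Il2ra, Ikzf2 and Ctla4) averaged 6.20 to 6.30 in wild type, 2.96 to 3.99 in the chronic and 2.99 to 4.19 in the exponential phase. CD4 T-cell markers (Cd4 and Cd40lg) averaged 4.19 to 4.59, 1.71 to 2.51 and 1.91 to 4.36. In bulk RNA, fewer cells of a type and less RNA per cell cannot be told apart.

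**Figure D1:**
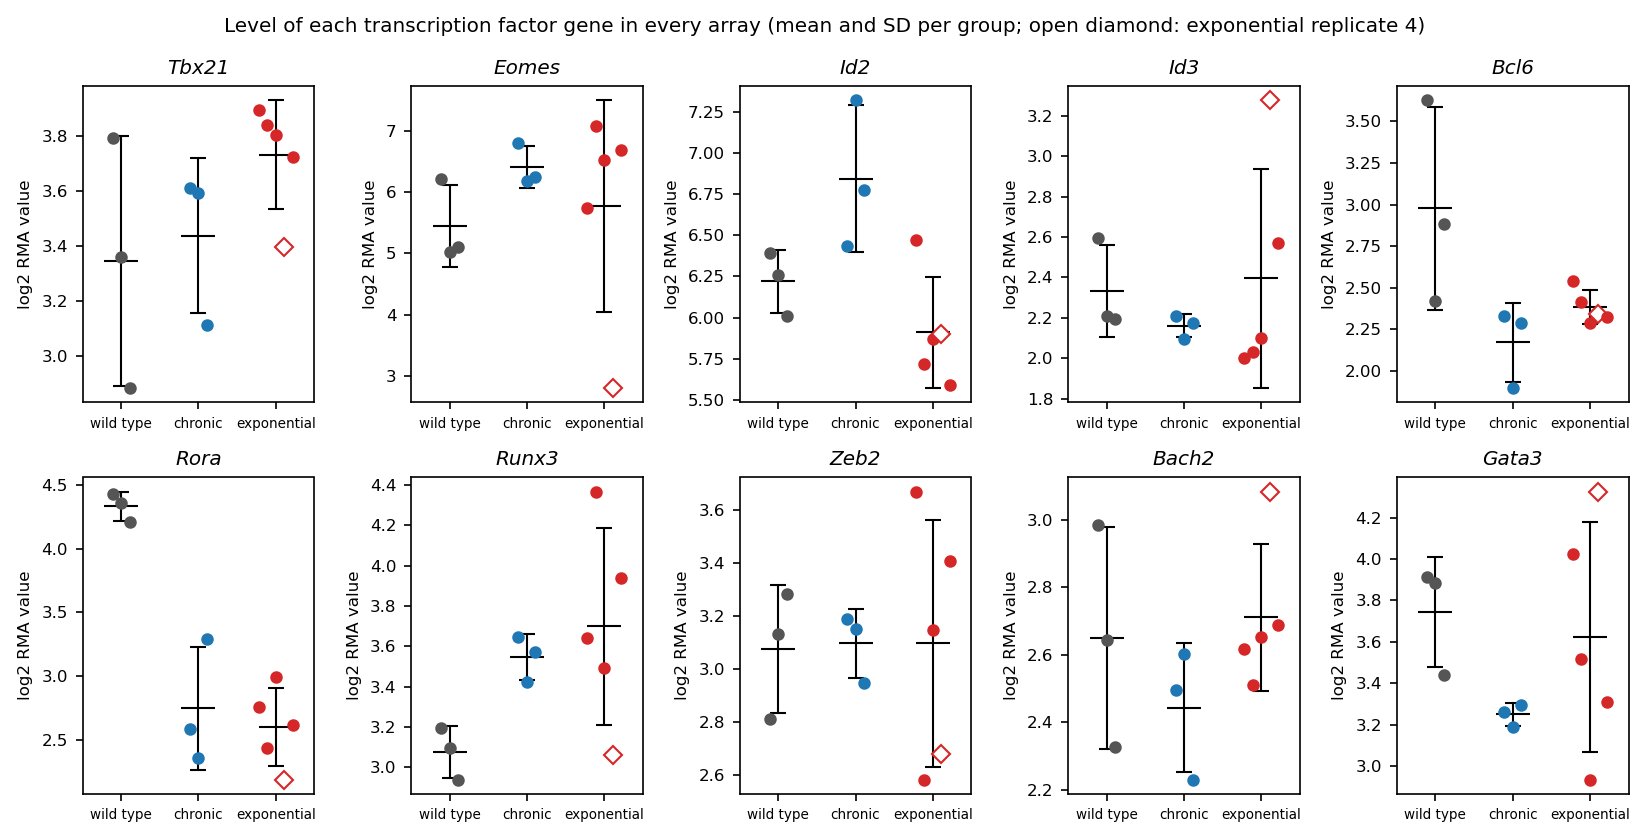
Log2 RMA value (vertical axis, a separate scale in each panel) of the 10 genes on every array, with one point for each array and the mean and SD of each group in black. Rora of all 8 leukemia arrays lies under the lowest wild-type array (4.21), and the open diamond, exponential replicate 4, is the lowest of the 11 arrays for Eomes (2.81) and Rora (2.18) and the highest for Id3 (3.28), Bach2 (3.08) and Gata3 (4.32).

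Rora was the 1 member that passed the test in both phases, and it was lower in leukemia. It encodes an orphan nuclear receptor. Wild-type replicates 1 to 3 had Rora values of 4.43, 4.36 and 4.21. The chronic arrays had 2.58, 2.36 and 3.29, and the exponential arrays had 2.76, 2.43, 2.99, 2.18 and 2.61. All 8 leukemia arrays lay below all 3 wild-type arrays, with a gap between the highest leukemia array (chronic replicate 3) and the lowest wild-type array. The mean of Rora was 4.33 ± 0.11 (SD, n = 3) in wild type and 2.74 ± 0.49 (SD, n = 3) in the chronic phase, where it fell by 1.59 on the log2 scale (SE 0.23, limma adjusted p = 0.0452), or was 3.01-fold lower. In the exponential phase it fell by 1.74 (SE 0.17, limma adjusted p = 0.0041) to 2.60 ± 0.31 (SD, n = 5), or 3.34-fold lower. Both phases were measured against the same wild-type arrays. With all leukemias as 1 group, Rora fell by 1.68 (SE 0.20, limma adjusted p = 0.0018). The order of means was wild type, chronic, exponential, and the chronic and exponential means did not differ beyond their spread (difference -0.15, 95% confidence interval -0.68 to 0.38, limma adjusted p = 0.947).

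A gene was called at a limma adjusted p under 0.05, over all genes, with a fold-change of at least 1.5. In chronic against wild type 1 of 10 members was called, beside 0.456% of all genes, and 6 members had an unadjusted p under 0.05, beside 11.2% of all genes. In exponential against wild type 1 member was called (0.416% of all genes) and 3 had an unadjusted p under 0.05 (9.78% of all genes). With all leukemias as 1 group 1 was called (0.722% of all genes) and 3 had an unadjusted p under 0.05 (10.6%). In each case the member was Rora. Between the phases 0 members and 0% of all genes were called by limma, with 1 member (Id2) and 1246 genes (6.25%) at an unadjusted p under 0.05, and the methods' t-test with adjustment called 0 genes too. The median difference over the 10 members was -0.08 in chronic and 0.04 in exponential against wild type, beside 0.00 and 0.01 over all genes, and without exponential replicate 4 the exponential median of the members was -0.10.

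The chronic call of Rora depended on single arrays. It was lost without wild-type replicate 1, 2 or 3 (limma adjusted p = 0.157, 0.154 and 0.122) and without chronic replicate 1 or 2 (0.108 and 0.103), with differences between -1.86 and -1.40 when any one array was left out. It was also lost with the replicate number as a block (adjusted p = 0.0555), with all rows of the table tested (0.161) and by the methods' t-test after adjustment (0.380). The exponential call was lost by the methods' t-test (0.109) and kept without exponential replicate 4 (difference -1.64, limma adjusted p = 0.000971). Over all leukemias Rora was called without that array too (difference -1.62, adjusted p = 0.0011). The CD4 and regulatory T-cell markers given above had lower values in the same groups, apart from Cd4 on exponential replicate 4, and so had the measured markers of type 2 innate lymphoid cells, Kit and Il17rb, which averaged 2.52 to 3.13 in wild type, 2.11 to 2.56 in the chronic and 2.14 to 2.29 in the exponential phase. Il17rb was below every wild-type array on all 8 leukemia arrays, and it lay under the median of all rows on 10 of 11 arrays. With all leukemias as 1 group, 3.31% of all genes did not overlap with wild type, in either direction. Kit was below every wild-type array on 7 of the 8, with chronic replicate 2 at 3.07 inside the wild-type range (2.82 to 3.66). The means over 7 myeloid markers were 2.18 to 2.30, 2.18 to 2.37 and 3.12 to 4.53, and those over 3 erythroid markers 4.24 to 5.06, 2.03 to 4.90 and 1.91 to 3.33. Of these markers, Lyz2 rose by 2.91 (SE 0.32, limma adjusted p = 0.0114) and Car1 fell by 6.11 (SE 0.71, adjusted p = 0.0114) in the exponential phase. Car1 was the 1 erythroid marker of 3 with an unadjusted p under 0.05 there. Klf1 and Epb42 overlapped with wild type, with means of 2.48 and 2.19 in wild type and 2.24 and 1.99 in the exponential phase. On exponential replicate 4 Cd4 was above every wild-type array, and Rora was the lowest of all 11 arrays. The regulatory T-cell markers averaged 3.76 there, but they differed from each other. Ikzf2 was at 6.88 (2.67 to 4.29 on the other leukemia arrays), and Foxp3, Il2ra and Ctla4 were at 2.24, 2.07 and 3.85. Each was below every wild-type array. The part of these cell types in the Rora difference was not tested.

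The window before the Rora start site is shown because this was the member that was called. The windows of Runx3 and Eomes are shown because, without exponential replicate 4, they had the highest correlation of any pair of members (r = 0.82). Over all 11 arrays their r was 0.70, and the highest was that of Id3 and Bach2 (0.75). Each sequence is the 250 bases before the annotated start site, 5′ to 3′ on the + strand of GRCm38.p6, from RefSeq, at chr9:68653536-68653785 for Rora, chr4:135120395-135120644 for Runx3 and chr9:118477939-118478188 for Eomes. Capitals mark the RUNX motif TGTGGT, which reads ACCACA on the strand shown, in Runx3, and the TATA motif TATAA in Eomes.
Rora: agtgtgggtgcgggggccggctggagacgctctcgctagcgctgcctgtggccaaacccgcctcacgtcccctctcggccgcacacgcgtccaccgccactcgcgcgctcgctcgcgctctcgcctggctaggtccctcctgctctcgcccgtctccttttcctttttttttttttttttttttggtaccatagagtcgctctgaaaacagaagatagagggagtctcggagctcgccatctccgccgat
Runx3: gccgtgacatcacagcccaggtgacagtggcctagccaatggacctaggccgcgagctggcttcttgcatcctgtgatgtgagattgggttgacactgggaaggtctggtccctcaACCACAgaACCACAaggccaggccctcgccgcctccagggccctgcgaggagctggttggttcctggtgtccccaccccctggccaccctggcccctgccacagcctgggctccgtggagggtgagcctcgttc
Eomes: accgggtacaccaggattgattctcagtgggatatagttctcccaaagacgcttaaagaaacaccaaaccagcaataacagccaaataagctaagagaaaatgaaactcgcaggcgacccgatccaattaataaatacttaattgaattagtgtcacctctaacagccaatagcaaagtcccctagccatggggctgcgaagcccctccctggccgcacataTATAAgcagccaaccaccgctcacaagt
In all, 8 motifs were searched on both strands in windows of 300 bases, 250 before and 50 from the start site. All 10 members had a window in RefSeq, and Bcl6, Runx3 and Zeb2 had several, which gave 15 windows. TGTGGT was in 1 of the 15 member windows, that of Runx3 shown, and in 16.8% of all 32851 windows. TATAA was in 4 of the 15, from 3 members, and in 24.9% of all windows. Some Zeb2 windows overlap, so a site can be counted in more than 1 window. The Rora window held none of the 8 motifs. The ROR half-site AGGTCA and the T-box core GTGTGA were in 0 member windows (16.3% and 14.5% of all windows). The E-box CANNTG was in 6 windows of 5 members (72.3%) and GATAA in 4 windows of 2 members (25.4%). The E-box form CACCTG, which CANNTG also matches, was in 2 (20.2%), and TGANTCA, the motif of AP-1 and BACH2, in 1 (7.81%). A motif match is a description of these letters, and nothing was read from a missing match.

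Runx3, which encodes the RUNX factor of the CD8 lineage, had higher values in leukemia but was not called. Its values were 3.20, 3.09 and 2.94 in wild type and 3.65, 3.42 and 3.57 in the chronic phase. The exponential arrays had Runx3 at 3.64, 4.37, 3.49, 3.06 and 3.94. Every leukemia array except exponential replicate 4 lay above all wild-type arrays. The chronic difference was 0.47 (SE 0.13, unadjusted p = 0.0063, limma adjusted p = 0.205), the exponential difference 0.62 (SE 0.25, adjusted p = 0.44) and that of all leukemias 0.57 (SE 0.21, adjusted p = 0.322). Without exponential replicate 4 the exponential difference of Runx3 was 0.78 (limma adjusted p = 0.107).

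Eomes and Tbx21 encode the T-box factors of cytotoxic T-cells, and neither was called. Eomes was at 6.21, 5.02 and 5.10 in wild type, at 6.80, 6.17 and 6.24 in the chronic phase and at 5.74, 7.08, 6.52, 2.81 and 6.69 in the exponential phase. The chronic arrays overlapped with wild-type replicate 1, and the exponential arrays spanned the widest range of any member, 4.27 with and 1.34 without exponential replicate 4, which lay 3.70 under the mean of the other 4. The chronic difference was 0.96 (SE 0.33, unadjusted p = 0.020, limma adjusted p = 0.325). The exponential difference was 0.32 with an SE of 0.85, and its 95% confidence interval ran from -1.59 to 2.24. Without exponential replicate 4 it was 1.06 (limma adjusted p = 0.228), and the difference of all leukemias from wild type went from 0.56 to 1.02 (adjusted p = 0.868 and 0.149). Tbx21 was at 3.79, 3.36 and 2.88 in wild type, 3.61, 3.59 and 3.11 in the chronic phase and 3.90, 3.84, 3.80, 3.40 and 3.72 in the exponential phase. Of the 5 exponential arrays, 3 lay above the highest wild-type array. Its differences were 0.09 (SE 0.25, limma adjusted p = 0.949) for the chronic and 0.39 (SE 0.20, adjusted p = 0.588) for the exponential phase, and 0.47 (adjusted p = 0.363) for the latter without exponential replicate 4.

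Zeb2, a repressor that works with T-bet in terminal effector cells, showed no difference that passed the test. Its values were 2.81 to 3.28 in wild type, 2.95 to 3.19 in the chronic phase and 2.58 to 3.67 in the exponential phase, and the groups overlapped. The difference was 0.02 in both phases, with 95% confidence intervals of -0.34 to 0.38 (chronic) and -0.53 to 0.58 (exponential). The exponential difference of Zeb2 was 0.13 without exponential replicate 4 (limma adjusted p = 0.92).

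**Figure D2:**
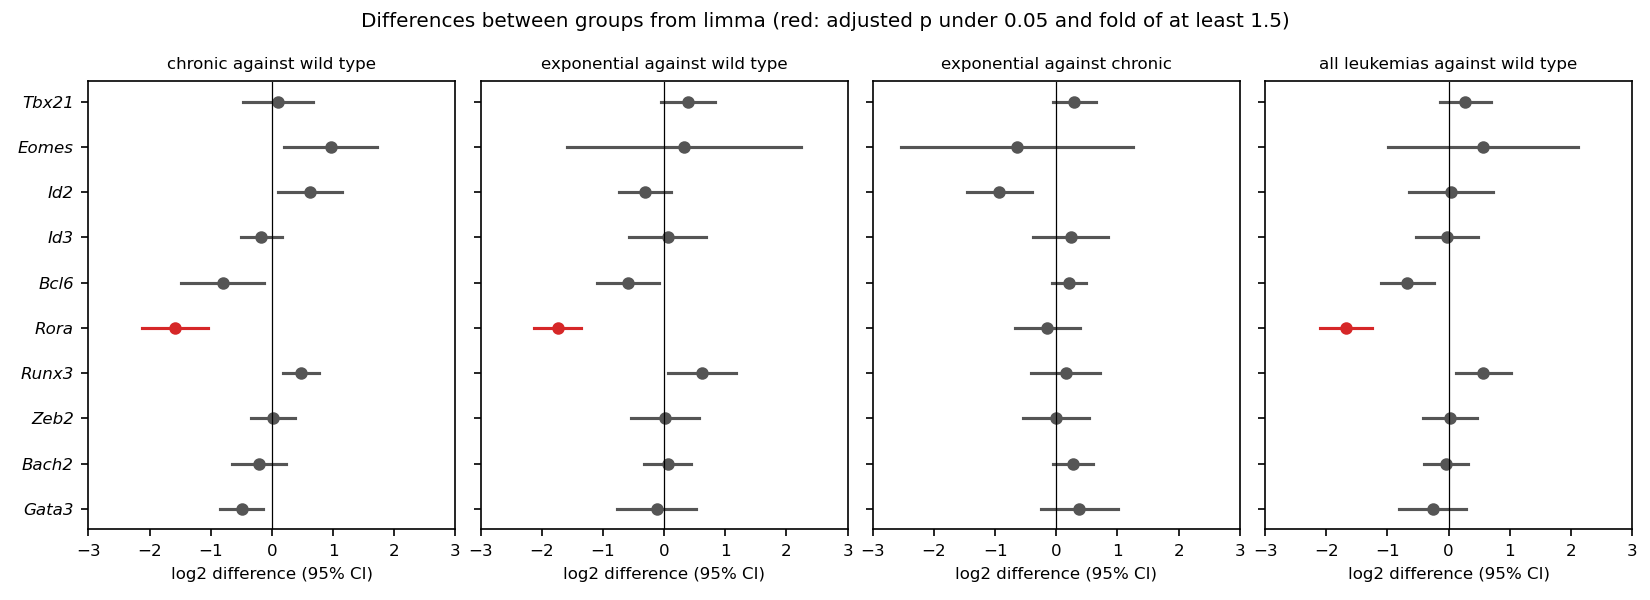
Log2 difference between groups (horizontal axis) with its 95% confidence interval from limma, for each gene (rows) in 4 comparisons (panels). Red marks a call, which Rora had in the 3 comparisons with wild type (-1.59, -1.74 and -1.68), and the interval of Eomes is the widest in the exponential comparison (-1.59 to 2.24).

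The ID genes followed different patterns. Id2, which supports effector cells, was at 6.39, 6.26 and 6.01 in wild type, at 6.43, 7.32 and 6.77 in the chronic phase and at 6.47, 5.72, 5.87, 5.90 and 5.59 in the exponential phase. All 3 chronic arrays lay above wild type, chronic replicate 1 by a small margin, and 4 of 5 exponential arrays lay below it. The difference was 0.62 in the chronic phase (SE 0.23, unadjusted p = 0.027, limma adjusted p = 0.359) and -0.31 in the exponential phase (SE 0.19, adjusted p = 0.685). Between the phases Id2 was the member with the smallest p, at -0.93 (SE 0.24, unadjusted p = 0.0032), but this missed the adjusted threshold (limma adjusted p = 0.742). Without exponential replicate 4 it was again -0.93 (adjusted p = 0.578). Id3, which supports naive and memory cells, lay under the median of all rows on 8 of 11 arrays. It was at 2.19 to 2.60 in wild type, 2.10 to 2.21 in the chronic phase and 2.00 to 3.28 in the exponential phase. The differences were -0.17 (SE 0.14) and 0.06 (SE 0.28), with limma adjusted p of 0.761 and 0.976. The exponential difference of Id3 turned direction without exponential replicate 4, to -0.16 (adjusted p = 0.838).

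Bcl6 and Bach2 encode repressors of the effector program. Bcl6 was at 3.63, 2.42 and 2.88 in wild type, 2.33, 1.90 and 2.29 in the chronic phase and 2.54, 2.42, 2.29, 2.34 and 2.33 in the exponential phase. The wild-type arrays were spread over 1.21, and exponential replicate 1 was the leukemia array that reached into their range. The Bcl6 difference was -0.80 in the chronic phase (SE 0.29, unadjusted p = 0.026, limma adjusted p = 0.351), -0.59 in the exponential phase (SE 0.22, adjusted p = 0.40) and -0.67 over all leukemias (SE 0.20, unadjusted p = 0.0056, adjusted p = 0.20). Without wild-type replicate 1, the highest array, the difference over all leukemias was -0.35. Bach2 overlapped between the groups, at 2.33 to 2.98 in wild type, 2.23 to 2.60 in the chronic phase and 2.51 to 3.08 in the exponential phase. Its differences were -0.21 (SE 0.19, limma adjusted p = 0.791) and 0.06 (SE 0.17, adjusted p = 0.957), and the latter turned to -0.03 (adjusted p = 0.974) without exponential replicate 4.

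Gata3 was at 3.91, 3.88 and 3.44 in wild type, 3.26, 3.19 and 3.30 in the chronic phase and 4.03, 3.52, 2.93, 4.32 and 3.31 in the exponential phase. The chronic arrays lay close together and below wild type, while the exponential arrays reached both above and below it. The chronic difference was -0.50 (SE 0.15, unadjusted p = 0.013, limma adjusted p = 0.272) and the exponential difference -0.12 (SE 0.29, adjusted p = 0.946), or -0.30 (adjusted p = 0.751) without exponential replicate 4. The SD of Gata3 was 0.05 in the chronic phase and 0.56 in the exponential phase (n = 3 and 5).

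The groups did not overlap for 5 members in chronic against wild type (Id2, Bcl6, Rora, Runx3 and Gata3), beside 15.8% of all genes. In exponential against wild type this held for 1 member, beside 6.78% of all genes, and with all leukemias as 1 group for 1 member, beside 3.31%. Both were Rora.

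**Figure D3:**
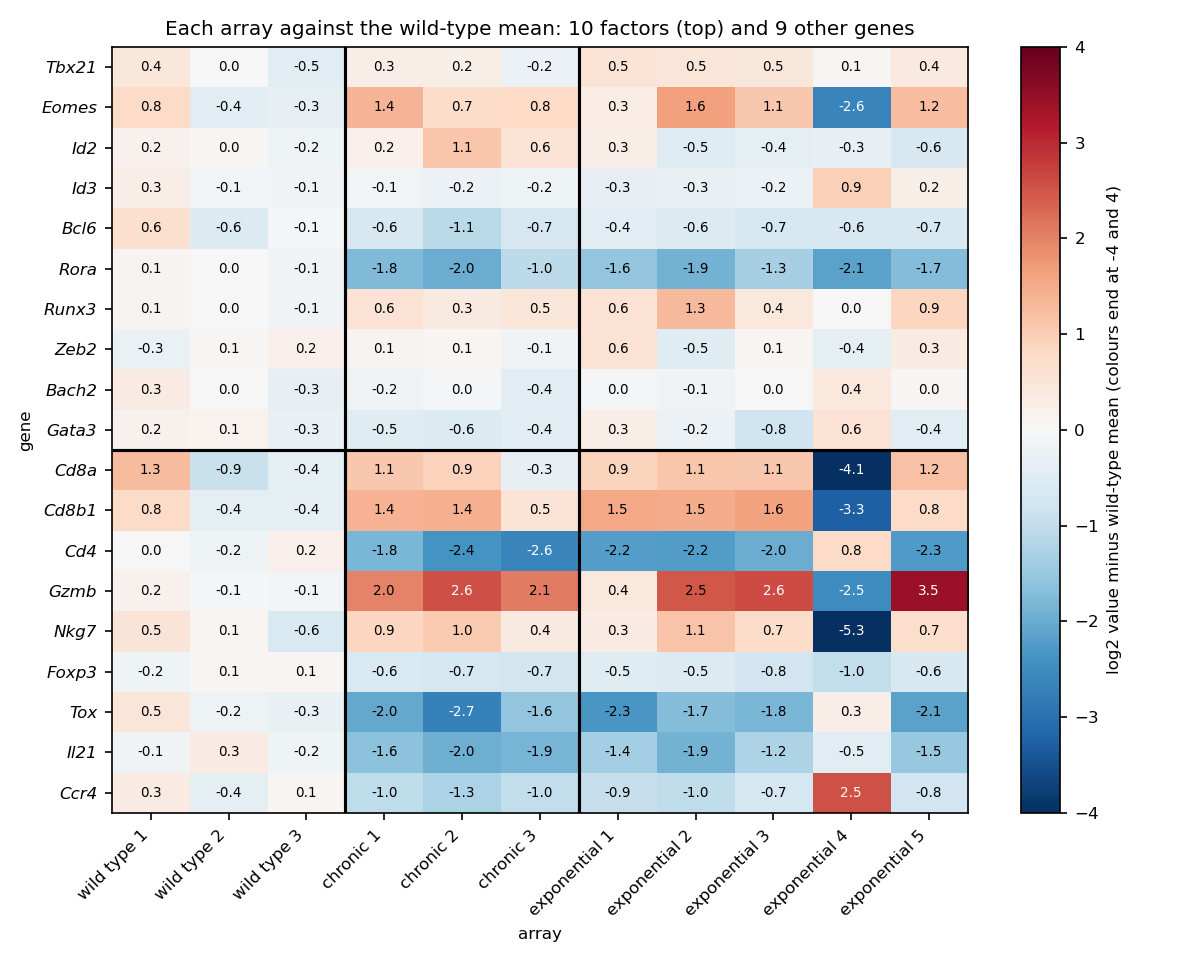
Log2 value of each array minus the wild-type mean (colour and printed number, colours ending at -4 and 4) for the 10 factors above the line and 9 other genes below it, with arrays in columns. Rora is below 0 on all leukemia arrays, and in the column of exponential replicate 4 Eomes, Cd8a, Cd8b1, Gzmb and Nkg7 are low while Cd4 and Ccr4 are high.

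Exponential replicate 4 held a combination of member values found on no other array. It was the lowest of 11 for Eomes (2.81) and Rora (2.18), the second lowest for Runx3 (3.06) and Zeb2 (2.68), and the highest for Id3 (3.28), Bach2 (3.08) and Gata3 (4.32). Against the mean of the other 4 exponential arrays, Eomes was 3.70, Runx3 0.80 and Zeb2 0.52 lower on the log2 scale, and Id3 was 1.10, Gata3 0.88 and Bach2 0.47 higher. Id2 (5.90) and Bcl6 (2.34) lay within the range of the other exponential arrays. These are values of 1 array and were not tested. Genes chosen after their values were seen differed there too. Nkg7, a cytotoxic granule gene, was at 2.75 against 7.50 to 9.24 on the other arrays, Gzmb, which encodes granzyme B, at 2.48 against 4.89 to 8.47, and the chemokine gene Ccl5 at 4.69 against 8.48 to 11.13. Ccr4, a chemokine receptor gene of type 2 helper and regulatory T-cells, was at 5.68 against 1.87 to 3.47.

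Partners and associated genes of the factors were described by 9 lists with 74 of 81 genes measured. In chronic against wild type 2 were called higher and 3 lower, and 28 had an unadjusted p under 0.05. Of all genes 0.456% were called and 11.2% had such a p. In exponential against wild type 0 were called by limma, with 23 at an unadjusted p under 0.05 (9.78% of all genes). Without exponential replicate 4, an alternative added after seeing the data, 7 were called, all lower (Runx1, Tox, Foxp3, Il21, Icos, Slamf6 and Ccr4), beside 1.11% of all genes. Between the phases 0 were called with all arrays, with 11 at an unadjusted p under 0.05 (6.25% of all genes). Without exponential replicate 4, 0 were called (0% of all genes), with 12 at such a p (7.08% of all genes). With all leukemias as 1 group 2 were called, both lower, and 8 without that array, 1 higher (Gzmb) and 7 lower, beside 1.37% of all genes. The chosen lists hold T-cell genes and were not drawn from all genes at random, so these shares are descriptions.

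Among partners of RUNX3 and regulators of the CD4 or CD8 choice, 2 of 6 measured genes fell in the chronic phase. Runx1, its close relative, fell by 1.28 (SE 0.19, limma adjusted p = 0.0452). Tox, a regulator of CD4 lineage choice and of exhausted T-cells, fell by 2.10 (SE 0.31, limma adjusted p = 0.0452). Neither was called in the exponential phase with all arrays (differences -0.85 and -1.55, adjusted p = 0.466 and 0.333), and both were called without exponential replicate 4 (-1.13 and -2.01, adjusted p = 0.0285 and 0.003). Tox was at 6.85 on that array and at 4.24 to 4.85 on the other exponential arrays. Zbtb7b, which encodes the CD4 lineage factor ThPOK, had a difference of -0.43 over all leukemias (SE 0.13, adjusted p = 0.183). Cbfb, the shared binding partner of RUNX proteins, had 0.57 in the chronic phase (SE 0.16, adjusted p = 0.22). The list median was -0.35 in the chronic and -0.25 in the exponential phase (-0.30 without exponential replicate 4).

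Of 14 effector genes associated with T-bet, EOMES and ZEB2, 2 rose in the chronic phase and 0 were called in the exponential phase with or without exponential replicate 4. With all arrays 2 had an exponential difference with an unadjusted p under 0.05. Gzmb was at 5.19, 4.95 and 4.89 in wild type and at 7.00, 7.58 and 7.08 in the chronic phase, a rise of 2.21 (SE 0.18, limma adjusted p = 0.008). Klrd1, which encodes the receptor chain CD94 of cytotoxic cells, rose by 1.88 (SE 0.26, limma adjusted p = 0.0371). Klrg1, a marker of terminal effector cells, differed by -0.99 over all leukemias (SE 0.31, adjusted p = 0.225), and the interleukin-2 receptor chain gene Il2rb by 0.78 (SE 0.36, adjusted p = 0.471). Il12rb2, a receptor chain gene for interleukin-12, differed by -0.63 (SE 0.21, adjusted p = 0.249). The median over the list was 0.22 in the chronic phase. In the exponential phase it was -0.33 with all arrays and 0.29 without exponential replicate 4, so its direction turned with that array, as did that of Klrd1 (-0.17 and 0.57, adjusted p = 0.978 and 0.68). Of the 14 genes 8 had a positive and 6 a negative chronic difference.

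Of 9 measured naive, memory and follicular genes associated with BACH2, BCL6 and ID3, 1 fell in the chronic phase. This was Il21, the cytokine gene of follicular helper cells, which fell by 1.82 (SE 0.17, limma adjusted p = 0.0115), and by 1.49 over all leukemias (SE 0.27, adjusted p = 0.0246). The costimulatory receptor gene Icos differed by -2.69 (SE 0.47, adjusted p = 0.0741) and Slamf6, a homotypic receptor gene, by -2.11 (SE 0.37, adjusted p = 0.0769) in the chronic phase, which missed the threshold. Both were called without exponential replicate 4 over all leukemias (-2.67 and -2.15, adjusted p = 0.00458 and 0.00725). In the exponential phase without that array, Il21, Icos and Slamf6 differed by -1.50, -2.66 and -2.18 (limma adjusted p = 0.00682, 0.00246 and 0.00738). The list median was -0.64 in the chronic and -0.63 in the exponential phase (-0.42 without exponential replicate 4), and 8 of 9 chronic differences were negative.

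Of 6 measured helper lineage factors 0 were called in either phase alone with all arrays, with 4 (chronic) and 3 (exponential) at an unadjusted p under 0.05, and Foxp3 fell over all leukemias by 0.68 (SE 0.11, limma adjusted p = 0.0132). Foxp3 was called in the exponential phase too without exponential replicate 4 (-0.60, adjusted p = 0.048). Ahr, a ligand-activated factor of interleukin-17- and interleukin-22-producing cells, had -1.12 in the chronic phase (SE 0.17, adjusted p = 0.0501), just outside the threshold. Maf, a factor of follicular and interleukin-10-producing cells, differed by -0.41 over all leukemias (SE 0.15, adjusted p = 0.322).

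With all arrays, the remaining lists had 0 calls by limma in any comparison. Ccr4 of the GATA3 list was called without exponential replicate 4 in the exponential phase (-0.85, adjusted p = 0.0494) and over all leukemias (-0.95, adjusted p = 0.0105). With all arrays the mean of Ccr4 was 3.15 in wild type, 2.97 in the exponential phase and 2.63 over all leukemias, without a call. Of 8 measured genes associated with RORA, 3 had an unadjusted p under 0.05 in the chronic and 2 in the exponential phase. The clock gene Arntl differed by -0.63 over all leukemias (SE 0.14, adjusted p = 0.0679), Il23r, the receptor gene for interleukin-23, by -0.43 (SE 0.10, adjusted p = 0.0739), and the clock repressor gene Nr1d2 by -0.41 (SE 0.29, adjusted p = 0.701). Il23r lay under the median of all rows on all 11 arrays, as did Ccr8 of the GATA3 list on 10 of 11. Of 7 GATA3-associated genes 1 and 2 had an unadjusted p under 0.05 in the chronic and exponential phase, and over all leukemias Dusp6, Il4ra and Ccr8 differed by -0.37, 0.69 and -0.28 (adjusted p = 0.433, 0.446 and 0.463). Of 7 naive and memory factors 1 had an unadjusted p under 0.05 in each phase. It was Klf2, which maintains T-cell recirculation, in the chronic phase (-1.03, SE 0.23, adjusted p = 0.135), and the chromatin organiser gene Satb1 in the exponential phase (0.80, SE 0.23, adjusted p = 0.228). Over all leukemias Satb1 differed by 0.73, Klf2 by -0.57 and Klf3 by -0.29 (adjusted p = 0.211, 0.532 and 0.786). Of 12 effector and exhaustion factors 3 and 6 had an unadjusted p under 0.05, and Bhlhe40, Mxd1 and Ikzf3 differed by -1.17, 0.43 and 0.45 over all leukemias (adjusted p = 0.147, 0.338 and 0.343). Of 5 E-protein and ID family genes 0 and 1 had an unadjusted p under 0.05, and Tcf4, Id1 and Tcf12 differed by -0.54, 0.09 and 0.13 (adjusted p = 0.508, 0.827 and 0.865).

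**Figure D4:**
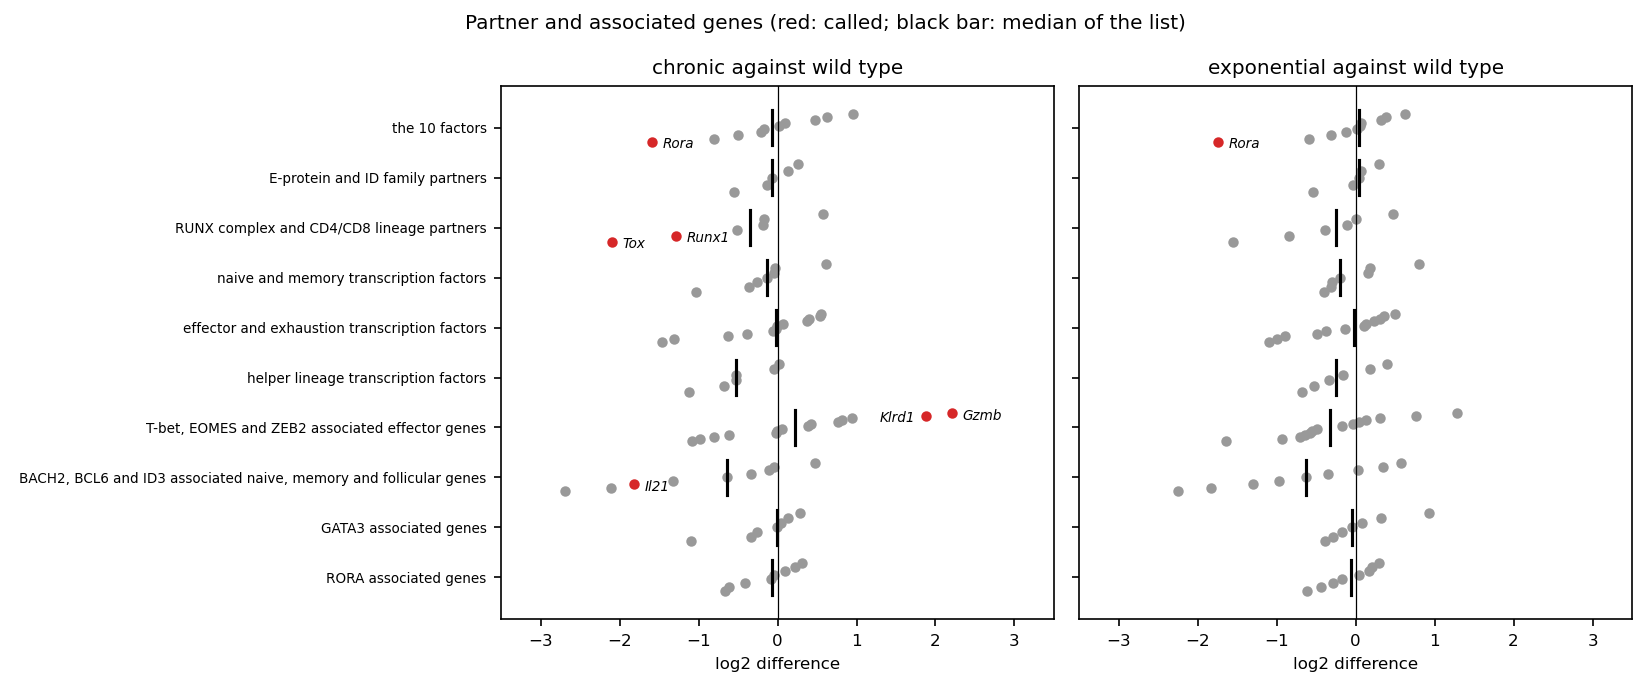
Log2 difference from wild type (horizontal axis) of the 10 factors and of the genes on 9 lists (rows, one point for each gene), in the chronic (left) and exponential (right) phase with all arrays, with list medians as black bars and calls in red. The chronic panel holds 6 calls (Rora, Runx1, Tox, Gzmb, Klrd1 and Il21), and the exponential panel holds 1 (Rora).

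The members did not vary as a block. Over the 10 arrays without exponential replicate 4, Eomes and Runx3 had the highest correlation of any pair of members (r = 0.82), followed by Bcl6 and Rora (0.71), and the lowest was between Rora and Runx3 (-0.78). Within the 7 leukemia arrays among them, which leaves out the difference from wild type, these values were 0.67, 0.28 and -0.37. Other pairs led there. The highest was Tbx21 and Bach2 (0.84, and 0.69 over the 10 arrays), and the lowest was Id2 and Runx3 (-0.68, and -0.34 over the 10 arrays). Over all 11 arrays Eomes and Id3 had r = -0.69 and Eomes and Gata3 -0.71, and without exponential replicate 4 these were 0.08 and -0.47. These correlations are descriptions over few arrays that share 1 normalization and differ in group.

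For each member the 3 genes with the highest correlation over the 11 arrays were listed. For Rora these were Penk (r = 0.98), Rabgap1l (0.97) and Zbtb20 (0.96), and without exponential replicate 4 the values were 0.98, 0.96 and 0.95. Within the 8 leukemia arrays they were 0.85, 0.76 and 0.85. For Eomes they were Pde2a (0.97), Rras2 (0.96) and Crybg1 (0.94), which had 0.91, 0.84 and 0.83 without exponential replicate 4. Runx3 was most like Ubfd1 (0.94), Entr1 (0.92) and Lpin1 (0.91), and Tbx21 most like Errfi1 (0.90), Itgb1bp1 (0.89) and Psme1 (0.88). Id2 was most like Osgepl1 (0.93), Edn2 (0.90) and Lancl3 (0.89). Id3 was most like Elmod1, Mir181b-2 and Chst15 (0.94, 0.94 and 0.93), which had 0.80, 0.76 and 0.75 without exponential replicate 4. Bcl6 was most like Apaf1, Bco2 and Vpreb3 (0.96, 0.95 and 0.94), and within the leukemia arrays these had 0.72, 0.86 and 0.59. Zeb2 was most like Arf2, Alg12 and Ackr3 (0.89, 0.86 and 0.86), Bach2 like Olfr464, Rac1 and Pnoc (0.93, 0.92 and 0.90), and Gata3 like Scgb1b2, Nphs1 and Duoxa2 (0.94, 0.94 and 0.93). The highest of all other genes can be close to 1 by selection over so few arrays.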

How the data were processed

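Splenic T-cell RNA was measured on the Mouse Gene 1.0 ST array of Affymetrix. The authors deposited log2 values after RMA background correction and quantile normalization, by the affy package according to the study's methods. No software version is given in the sources used here. The log base was judged from the range of values. Groups came from the labels. Of 34760 rows, 21640 carried 1 symbol, and the row with the highest mean was kept for each of 19937 genes. Dim rows were kept. Precision is limited by how few arrays there were.

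Each comparison was fitted on the arrays of its own groups with lmFit and eBayes of limma 3.58.1 (R 4.3.3), with Benjamini-Hochberg adjustment over all genes. The fits were tested on simulated data. Calls needed an adjusted p under 0.05 and a fold of at least 1.5. The methods' t-test, other filters, scalings and models, and each array left out in turn served as alternatives.

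The members and gene lists were chosen with earlier results of these data known. Named are all 10 members, the list genes called in any comparison and the 3 of each list with the smallest unadjusted p over all leukemias. The naming rule also took the 3 genes most correlated with each member, and marker genes that included Cd8a, Cd8b1, Cd4 and Lyz2. Cbfb, Kit, Il17rb, Car1 and Cd40lg were among the genes added after their values were seen. Ccr4, Nkg7 and Ccl5 were named for exponential replicate 4 in the same way. Of the 81 listed genes, 74 were analysed, and the others are not reported here.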

Additional observations from a re-analysis of the deposited data

Results flagged for a closer look

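Exponential replicate 4 lay apart from the other 4 exponential arrays, by the gap to its nearest neighbour relative to the range of the group (Dixon's test at its 95% critical value), in 0 of the 10 members and in 5 of the 45 genes that the naming rule gave. Chance gives about 1 in 20 groups, but the 5 of 45 cannot be set beside that share. All values come from 1 array, and Cd8a and Cd4, which set this array apart above, are among the 5. Of 9 genes added after their values were seen, Nkg7, Ccr4, Ccl5 and Cd40lg lay apart too, and since genes were added for that array this count says nothing about chance. Of the co-receptor genes, Cd8a was at 2.96 (nearest array 7.94), Cd8b1 at 4.33 (nearest 8.37) and Cd4 at 5.18 (nearest 2.44). The cytotoxic gene Nkg7 was at 2.75 (nearest 8.42) and Ccl5 at 4.69 (nearest 8.48). Tox was at 6.85 (nearest 4.85), Maf at 2.88 (nearest 2.32), Ccr4 at 5.68 (nearest 2.44) and Cd40lg at 3.54 (nearest 2.03).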

How the results depend on the processing

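Of 40 member differences, 22 kept their direction and their side of the threshold in every alternative run, and 16 changed sign in at least 1. The cause of these changes was not tested. Rora kept its call over all leukemias in all 22 settings (differences -1.77 to -1.60, adjusted p 0.000151 to 0.0309). In the exponential phase it lost the call in 1 of 19 settings, the methods' t-test after Benjamini-Hochberg (difference -1.74, adjusted p = 0.109, 0 members called). In the chronic phase it lost the call in 8 of 17, with 0 members called and a difference of -1.59 with the replicate block (adjusted p = 0.0555), the methods' t-test after Benjamini-Hochberg (0.380) and all rows of the table (0.161). With any one array left out, the chronic count was 0 to 1 and the difference -1.86 to -1.40. At its unadjusted threshold the methods' t-test called 1 member between the phases (Id2) and 3 over all leukemias (Bcl6, Rora and Runx3). This t-test covered 19937 genes, and no setting called more than 134 genes between the phases or 549 over all leukemias. These member counts are descriptions without adjustment for the number of genes. Without exponential replicate 4 the genes called over all genes rose from 83 to 221 in exponential against wild type and from 144 to 273 over all leukemias, and the called list genes from 0 to 7 and from 2 to 8. Over all settings, counts of called genes ran from 0 to 619 (chronic), 4 to 482 (exponential), 0 to 134 (between the phases) and 46 to 549 (all leukemias).

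None of the differences that changed sign was called with all arrays. In exponential against wild type Id3 was -0.29 and Bach2 -0.057 with the replicate block, and Zeb2 was -0.015 with array weights. In exponential against chronic Eomes was 0.043 and Id3 -0.12 with the replicate block, Zeb2 was -0.0062 with median centring, -0.013 with cyclic loess and -0.018 with array weights, and Rora was 0.024 with array weights. Over all leukemias Id2 was -0.024 with cyclic loess, and Zeb2 was -0.027 and Bach2 0.026 with array weights. With any one array left out, chronic against wild type ran from -0.14 to 0.32 for Tbx21 and -0.11 to 0.13 for Zeb2. Exponential against wild type ran from -0.0048 to 1.06 for Eomes, -0.16 to 0.19 for Id3, -0.10 to 0.23 for Bach2, -0.30 to 0.049 for Gata3 and -0.12 to 0.15 for Zeb2. Exponential against chronic ran from -0.97 to 0.10 for Eomes, -0.34 to 0.13 for Rora, -0.013 to 0.31 for Runx3 and -0.14 to 0.13 for Zeb2. All leukemias ran from -0.11 to 0.14 for Id2, -0.16 to 0.11 for Id3, -0.20 to 0.13 for Bach2 and -0.11 to 0.13 for Zeb2. Without exponential replicate 4 the exponential median turned to -0.095 for the members and to 0.29 for the effector list, and Klrd1 to 0.57. Id3 was not tested after leaving out the dimmest 50% of genes. The labels share replicate numbers between groups. Same-numbered arrays deviated together at r = -0.04 to 0.18, with 4 of 9 pairs over 0.1. Other pairs had r = -0.23 to 0.16, with 3 of 30 over 0.1. The numbers were not taken as pairs in the main fits, and the replicate block served as an alternative.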
